A study of Saccharomyces cerevisiae with 24 samples.

Results

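The left arm of chromosome II of budding yeast carries the open reading frames (ORFs) whose systematic names start with YBL, numbered outward from the centromere. Of the 6033 nuclear ORFs listed, 112 have such names, and the 110 that remain without the histone ORFs HTA2 (YBL003C) and HTB2 (YBL002W) were followed across karyotypes. They were chosen by name alone, so no measured value decided membership. The 300 ORFs of the right arm, whose names start with YBR, served as a second sample of the same duplicated chromosome.

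All strains were haploid Saccharomyces cerevisiae of the S288c background, grown in rich medium and treated with cycloheximide before harvest. The wild type (WT, MATa ura3 his3 trp1 leu2 LYS2) and each aneuploid strain, a clonal isolate with the named chromosomes present in 2 copies, were measured by sequencing total mRNA and ribosome footprints (FP, the mRNA fragments covered by ribosomes) from aliquots of 1 lysate per culture. Chromosome II was duplicated in D1/2/8/11, D1/2/8, D1/2 and D2, which give 5 libraries per fraction. It was not duplicated in WT, D1/8, D13 and a second D13 strain, KLY195, which give 7 libraries per fraction. D1/2/8/11 and D1/8 carry a TRP cassette that reverted a cak1 mutation, KLY195 carries TRP and LEU cassettes that reverted cak1 and sec24 mutations, and both D13 strains are MATalpha. D1/2/8 and D13 keep the cak1 mutation, and D13 the sec24 mutation as well. WT, D2 and D1/2 were sequenced in run 1 with 1 culture each. A second WT culture and all other strains were sequenced in run 2, with 2 cultures each of KLY195, D1/8 and D1/2/8/11 and 1 culture each of D13 and D1/2/8.

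An extra chromosome supplies each of its genes with 1 more template, and the usual result in yeast is more mRNA in proportion to gene copies. A gene can depart from that proportion when its promoter responds to its own product or to the state of the cell, or when its transcripts are translated at a different rate. Many left-arm genes encode subunits of complexes whose other subunits lie mostly on other chromosomes. The arm holds no single pathway: its genes include the 20S proteasome subunit PRE7, the mitochondrial ATPase subunit ATP1, the replicative helicase subunit MCM2, the drug resistance regulator PDR3 and the pheromone pathway kinase FUS3.

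Values were the deposited RPKM (reads scaled to the length of the coding sequence and to library size). The paper's methods also divide aneuploid values by their median ratio to the euploid over nonduplicated chromosomes. Each value was taken as a log2 ratio to WT of the same run, in which 1 equals the change in copy number. Depth recovered from the smallest RPKM steps was 1532523 to 3477520 reads per mRNA library in run 1 and 22379185 to 39626151 in run 2, and 1660636 to 5076123 and 8479282 to 24937407 reads per FP library. A left-arm gene had a median of 86.0 to 433.8 reads in the FP libraries of run 1, so single ratios in that run rest on fewer reads. The pooled SD of left-arm genes between cultures in FP was 0.389 in KLY195, 0.158 in D1/2/8/11 and 0.112 in D1/8, on the log2 scale. Without KLY195, 64 left-arm genes were higher in mRNA and 55 in FP, against 66 and 56 with it. The karyotype labels were checked on the right arm, whose median ratio lay between 0.82 and 0.95 in the 10 libraries with chromosome II duplicated and between -0.03 and 0.06 in the 10 others. The summed level of 4 MATalpha markers was 1417 to 3050 RPKM in the mRNA of both D13 strains against 9.70 to 30.6 elsewhere, as the mating types require. Mating type, chromosome XIII and strain differ together in the D13 strains and cannot be told apart.

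Of the 110 genes, 87 reached a mean of 5 RPKM in mRNA and 82 did so in FP, and all 82 were among the 87. In FP, SEF1 and SRO77 averaged under 5 RPKM over the 7 libraries with 1 copy, and passed through the libraries with the duplication. SEF1 was among the genes called higher in FP only, and SRO77 was called in neither fraction. The 23 tested in neither fraction comprised 8 genes with an interrupted coding sequence, 12 ORFs that the RefSeq annotation does not list as coding and 3 others of low level. The 8 interrupted genes (POP8, LSM2, RPL19B, ERD2, SEC17, IAI11, RPL23A and YBL111C) were listed at 0 in all 24 libraries, ribosomal protein genes included, so their dosage was not measured. Near-identical sequences limit a few others. RPS8A shares 79.3% of its 28-base words with another listed gene, and the subtelomeric YBL112C and YBL113C share 100% and 91.0%. How reads that match several genes were counted is not given, and values of these genes are uncertain.

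The left arm as a whole followed chromosome II. In mRNA the median ratio of its genes was 0.95 in D2, 1.02 in D1/2, 0.86 in D1/2/8, and 0.94 and 0.95 in the cultures of D1/2/8/11. It was -0.12 and -0.11 in KLY195, -0.08 in D13, and 0.04 and 0.03 in D1/8, so the karyotype groups did not overlap. In FP the medians were 0.94 in D2, 0.95 in D1/2, 0.92 in D1/2/8, and 1.04 and 1.11 in D1/2/8/11. The strains with 1 copy had FP medians of -0.08 and -0.05 in KLY195, 0.01 in D13, and 0.11 and 0.08 in D1/8, again apart from the first group.

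**Figure D1:**
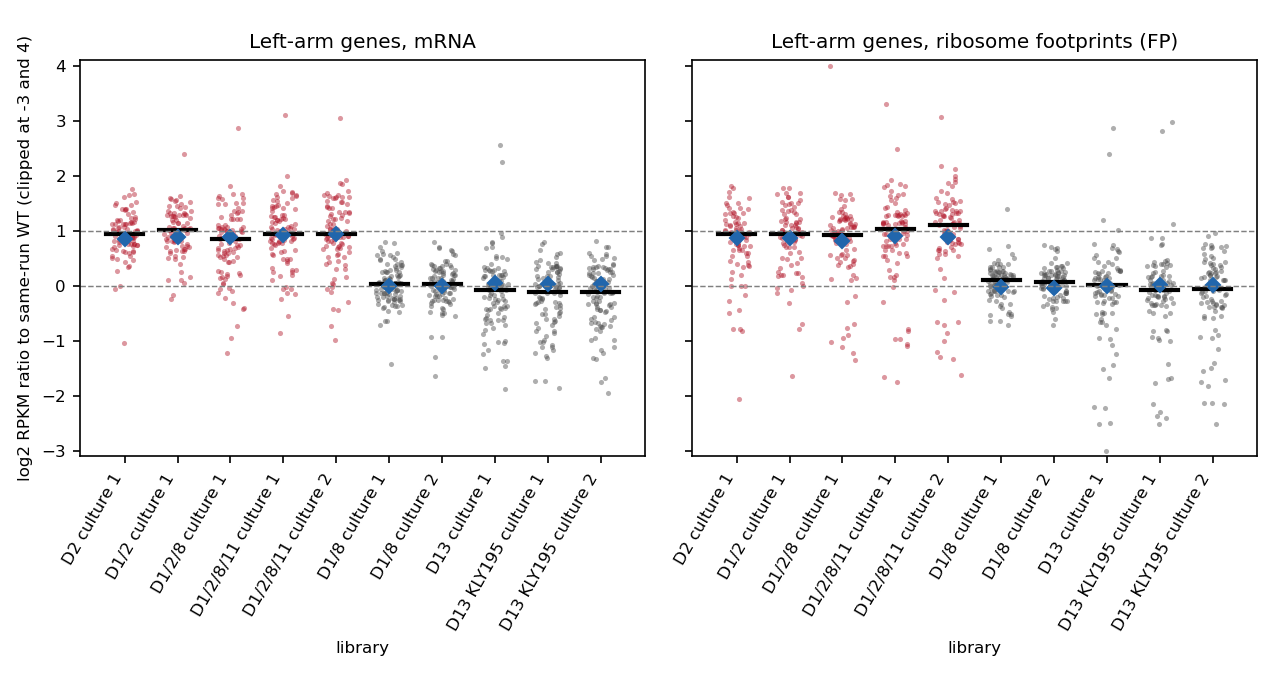
Log2 RPKM ratio to same-run WT (y axis) of each left-arm gene (points) in each aneuploid library (x axis), in mRNA and FP, with the left-arm median as a black bar and the right-arm median as a blue diamond. The 5 libraries with chromosome II duplicated (red) have left-arm medians of 0.86 to 1.11 and the 5 others (grey) of -0.12 to 0.11.

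The dosage change was tested gene by gene with a limma model of run and chromosome II copies over 9 strain values, 4 with chromosome II duplicated and 5 without. WT enters once per run, and KLY195 is the D13 strain with its cak1 and sec24 mutations reverted. The 5 values are thus not 5 independent isolates. The fitted difference, here called the copy effect, is on the log2(RPKM + 0.5) scale. In mRNA 66 of the 87 genes tested rose at an adjusted p under 0.05 and none fell, where 5.07% of all 5110 genes tested rose and 0.822% fell. In FP 56 of 82 rose and none fell, where 7.08% of all 4677 genes tested rose and 1.77% fell. The median copy effect of the left arm was 0.92 in mRNA and 0.94 in FP, against 0.01 and 0.02 over all genes tested. The right arm had medians of 0.85 and 0.80, with 166 of 259 and 134 of 238 genes higher. Run 2 alone gave 43 left-arm genes higher in mRNA and 34 in FP.

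Most genes rose in both fractions. Of the 82 genes tested in both, 50 rose in both, 14 in mRNA only, 6 in FP only and 12 in neither, and a call in 1 fraction alone is not a tested difference between fractions. All 5 ratios with chromosome II duplicated lay above all 5 other aneuploid ratios for 65 of 86 genes in mRNA, against 8.26% of 5062 nuclear genes. The same held for 53 of 84 genes in FP, against 8.53% of 4785. The copy effects in mRNA and FP had a Pearson r of 0.57 across the 82 genes, which share lysates and strains and are not independent replicates. They differed by less than 1.5-fold for 77 of the 82.

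**Figure D2:**
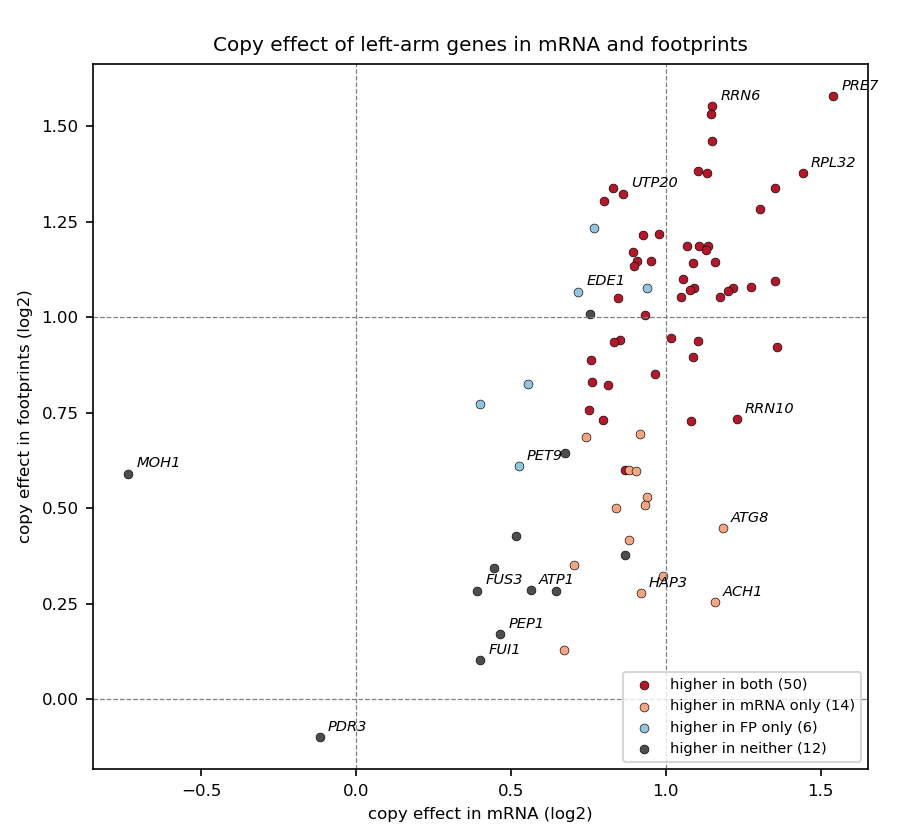
Copy effect in mRNA (x axis, log2) against copy effect in FP (y axis, log2) for the 82 left-arm genes tested in both fractions, coloured by the fraction in which they rose. Dashed lines mark 0 and 1. PRE7 lies at 1.54 and 1.58, PDR3 at -0.12 and -0.10, and most of the 50 genes higher in both lie near 1 on both axes.

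No gene was resolved as departing from copy number. Tested against a copy effect of 1, none of the left-arm genes passed an adjusted p under 0.05 in limma in either direction or fraction, and 0.575% of 348 chromosome II genes did in mRNA and 0% of 322 in FP. At an unadjusted p under 0.05, 10 left-arm genes lay below copy number and 7 above in mRNA, where 12.4% and 3.45% of chromosome II genes did. In FP 10 lay below and 8 above, where 18.3% and 7.14% did. The 95% interval of the copy effect held 1 for 70 of 87 genes in mRNA and 64 of 82 in FP, and it held both 0 and 1 for 9 and 14 genes, whose dosage response was therefore undecided at this depth and replication. With each culture as a replicate, 1 gene fell short and 3 exceeded copy number in mRNA, and 6 fell short and 5 exceeded it in FP. PDR3 and FUS3 had intervals below 1 in both fractions, and PRE7 and UBP13, which encodes a deubiquitinating enzyme, had intervals above 1 in both.

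PDR3 encodes a zinc cluster transcription factor that activates drug efflux genes and its own promoter through the Pdr1/Pdr3 element. It was the lowest of the genes tested in FP. Its promoter holds the palindromic element TCCGCGGA at 2 places within 500 bases before the start codon, as do 0.623% of 5620 promoters in at least 1 place. The sites are shown because PDR3 is known to act on its own promoter through this element, with the element in capitals, on the gene's strand and in build R64 (sacCer3), from the RefSeq genome.
PDR3 distal site, chrII:217235-217264, plus strand: ctgcccttgttTCCGCGGAgctgcctcctc
PDR3 proximal site, chrII:217268-217297, plus strand: cgctcggacttTCCGCGGAataataaatga

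PDR3 mRNA did not exceed WT in any library with chromosome II duplicated. Its log2 ratios were -0.05 in D2, -0.17 in D1/2, -0.94 in D1/2/8, and -0.86 and -0.99 in D1/2/8/11. In KLY195 they were -1.85 and -1.75, in D13 -1.49, and in D1/8 0.00 and 0.07, so the groups overlapped. In FP the same gene had ratios of 0.00, -0.04, -0.90, -0.78 and -1.0 in the strains with chromosome II duplicated, in the same order. D1/8, which shares chromosomes I and VIII with D1/2/8, had FP ratios of 0.24 and -0.01, while D13 had -1.51 and KLY195 -1.77 and -1.50. The copy effect was -0.12 ± 0.40 (SE) in mRNA and -0.10 ± 0.40 in FP, with 95% intervals of -1.02 to 0.78 and -1.01 to 0.82. The adjusted p against a copy effect of 1 was 0.264 and 0.154. With same-run ratios of the aneuploid strains only, the copy effect turned to 0.55 in mRNA and 0.53 in FP, and neither passed. The run by copy interaction was -0.01 ± 0.91 in mRNA and -0.12 ± 0.90 in FP (adjusted p = 0.997 and 0.958), and the part of strain was not tested.

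FUS3, the mitogen-activated protein kinase of the mating pathway, was the other gene below copy number in both fractions by its interval. In mRNA its ratios were 0.01 in D2, 0.05 in D1/2, 0.13 in D1/2/8, and 0.46 and 0.31 in D1/2/8/11, all above the other aneuploid strains, which lay between -0.67 and -0.10. In FP they were -0.79 in D2 and -0.78 in D1/2 but 0.87 in D1/2/8 and 1.16 and 1.34 in D1/2/8/11. The runs thus gave opposite signs in FP, and the run by copy interaction had an adjusted p of 0.471. The copy effect was 0.39 ± 0.17 in mRNA and 0.28 ± 0.30 in FP, neither passing the test against 0 (adjusted p = 0.256 and 0.561). Leaving out WT of run 1 moved the FP value to 0.82, and over the alternatives it ran from -0.18 to 1.02. The mRNA value ran from 0.31 to 0.69, and 2 of 26 alternatives passed. The FUS3 promoter holds the pheromone response element TGAAACA on both strands within 500 bases, as 11.7% of promoters do in at least 1 place. The sites are shown because FUS3 is itself induced through this element, with the match in capitals and the distal site reading TGTTTCA on the gene's strand.
FUS3 distal site, chrII:192178-192207, plus strand: agttttagatcTGTTTCAccctggaactca
FUS3 proximal site, chrII:192284-192313, plus strand: ttacagggcatTGAAACAattgcagaaaag

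**Figure D3:**
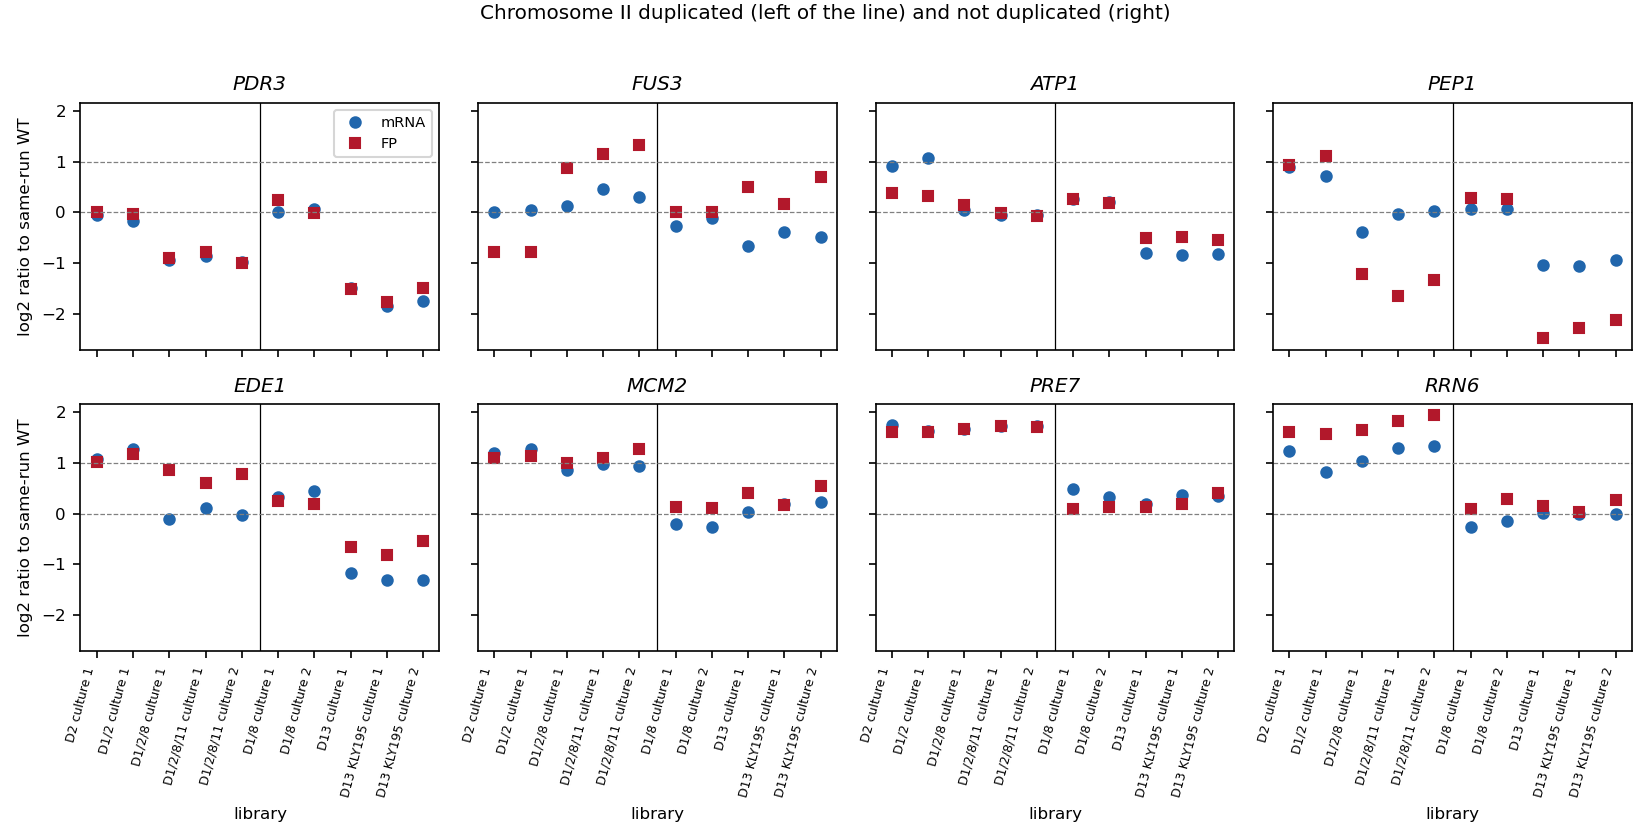
Log2 ratio to same-run WT (y axis) of 8 left-arm genes in each aneuploid library (x axis), mRNA as blue circles and FP as red squares, with libraries carrying chromosome II in 2 copies to the left of the vertical line. PRE7 lies between 1.61 and 1.76 in all of these, MCM2 between 0.86 and 1.28, and PDR3 at or below 0.00.

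Low FP values also belonged to the membrane protein genes FUI1 and PEP1. PEP1, the sorting receptor for vacuolar carboxypeptidase Y, had FP ratios of 0.95 in D2 and 1.11 in D1/2, but -1.22 in D1/2/8 and -1.66 and -1.33 in D1/2/8/11. In KLY195 it stood at -2.28 and -2.13, in D13 at -2.49, and in D1/8 at 0.28 and 0.27. With chromosome II duplicated the gene therefore lay near copy number in run 1 and below WT in run 2. In run 2 these strains differed by 0.99 from the D13 strains and by -1.63 from D1/8. Its copy effect was 0.17 ± 0.64 in FP and 0.47 ± 0.28 in mRNA, neither passing. The FP value ran from -0.53 to 1.29 over the alternatives.

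FUI1, the uridine permease, had FP ratios of 0.73 in D2, 1.04 in D1/2, -1.12 in D1/2/8, and -1.10 and -1.20 in the cultures of D1/2/8/11. In KLY195 it stood at -1.69 and -1.82, in D13 at -1.44, and in D1/8 at -0.27 and -0.13. FUI1 too lay near copy number in run 1 and below WT in run 2, where it differed by 0.46 from the D13 strains and by -0.93 from D1/8. In run 2 alone the FP copy effect was -0.28 for FUI1 and -0.25 for PEP1, a turn of sign from 0.10 and 0.17, and no value passed the test. The FUI1 value in FP ran from -0.28 to 0.99 over the alternatives. FUI1 mRNA had a copy effect of 0.40 ± 0.23.

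Values by run were also read for all genes whose protein has a predicted hydrophobic segment. A segment was 19 residues averaging 1.6 or more on the Kyte-Doolittle scale, or 11 residues averaging 2 or more among the first 35. The 15 left-arm genes with such a segment had FP medians of 0.95 in D2 and 0.99 in D1/2, and of 0.13 in D1/2/8 and 0.30 and 0.68 in D1/2/8/11. The class rests on sequence alone and holds PDR3, UTP20 and URA7 beside FUI1 and PEP1. In mRNA its 16 left-arm genes had medians of 0.85 and 0.73 in run 1 and of 0.21, 0.49 and 0.50 in run 2. The 69 right-arm genes with a segment had FP medians of 0.99 and 0.97 in run 1 and of -0.48, -0.51 and -0.32 in run 2. Genes on other chromosomes with a segment, 1328 in number, had FP medians of 0.03 and 0.03 in run 1 and of -0.68, -0.62 and -0.55 in the same run 2 strains. The 66 left-arm genes without a segment had FP medians of 0.95 and 0.95 in run 1 and of 1.03, 1.14 and 1.21 in run 2. The class was low in D13 and KLY195 as well, with left-arm medians of -1.23, -1.43 and -1.40, but not in D1/8, with -0.10 and -0.05. The part of run, strain and class in these values was not tested.

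Of the 12 mitochondrial and respiratory genes, 8 rose in mRNA with a median copy effect of 0.94 and 5 rose in FP with a median of 0.52. Among all left-arm genes tested the shares were 75.9% in mRNA and 68.3% in FP. ATP1, the alpha subunit of the F1 ATPase, had mRNA ratios of 0.92 in D2, 1.08 in D1/2, 0.05 in D1/2/8, and -0.05 and -0.06 in D1/2/8/11. Its FP ratios were 0.38, 0.33, 0.15, -0.02 and -0.07 in the same order, below 1.5-fold in all 5. PDR3, FMT1, ACH1 and YBL113C were the other genes below 1.5-fold in all 5 FP libraries, making 5 of 84 left-arm genes (5.95%) against 8.87% of right-arm genes. In mRNA these were PDR3, FUS3 and TEL1, 3 of 86 left-arm genes against 5% of right-arm genes. The ATP1 copy effect was 0.56 ± 0.26 in mRNA and 0.29 ± 0.18 in FP (adjusted p against 1 = 0.0842). Over the alternatives it ran from 0.25 to 0.97 in mRNA and from 0.10 to 0.47 in FP, and none passed the test against 0, while 1 of 26 passed that against 1 in FP. PET9, the main ADP/ATP carrier of the inner membrane, rose in FP by 0.61 ± 0.09 (adjusted p = 0.00513), with a 95% interval of 0.40 to 0.82. Its mRNA copy effect of 0.53 ± 0.28 did not pass, and D1/8, with 1 copy, stood at ratios of 0.71 and 0.70, between the 0.21 to 0.31 of the run 2 strains with chromosome II duplicated and the 0.75 and 0.97 of run 1. HAP3, a subunit of the activator of respiratory genes, rose in mRNA by 0.92 ± 0.18 and had an FP copy effect of 0.28 ± 0.20, which ran from -0.083 to 0.74 over the alternatives and passed in 1 of 26. COR1, a core subunit of respiratory complex III, rose by 0.76 ± 0.18 in mRNA and 0.83 ± 0.13 in FP.

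The genes tested of the list for ribosomes, RNA polymerase I and rRNA processing all rose. That list also holds NCL1 and the transcription factor TOD6. All 8 tested of 11 listed rose in both fractions, with median copy effects of 1.13 in mRNA and 1.33 in FP. Of all left-arm genes tested, 75.9% rose in mRNA and 68.3% in FP. RPL32, a protein of the large ribosomal subunit and the gene with the highest FP level in WT of those named here, rose by 1.44 ± 0.16 in mRNA and 1.38 ± 0.19 in FP. RRN6, a subunit of the RNA polymerase I core factor, had FP ratios of 1.61 in D2, 1.57 in D1/2, 1.65 in D1/2/8, and 1.83 and 1.95 in D1/2/8/11. The 5 other aneuploid libraries lay between 0.02 and 0.29, well below. Its copy effect was 1.15 ± 0.13 in mRNA and 1.55 ± 0.12 in FP (adjusted p against 1 = 0.0623), though it had 32.0 reads in its shallowest FP library. UTP20, of the small subunit processome, rose by 0.86 ± 0.12 and 1.32 ± 0.16, and RRN10, of the upstream activating factor, by 1.23 ± 0.10 and 0.73 ± 0.14. RPS8A rose by 1.13 ± 0.14 and 1.18 ± 0.15, a value that its near-identical copy may share.

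Among the 82 genes tested in both fractions, PRE7, the beta 6 subunit of the 20S proteasome, had the highest copy effect in each. In mRNA it stood at 207 RPKM in WT, 711 in D2 and 653 in D1/2 in run 1. In run 2 it stood at 273 RPKM in WT, 869 in D1/2/8, and 902 and 905 in D1/2/8/11, against 311 in D13, 352 and 346 in KLY195 and 383 and 344 in D1/8. The groups did not overlap. The copy effect was 1.54 ± 0.12 in mRNA (2.91-fold) and 1.58 ± 0.10 in FP (2.99-fold), and the adjusted p against a copy effect of 1 was 0.162 and 0.0530. Proteasome genes share the element GGTGGCAAA, bound by the activator Rpn4, and the PRE7 promoter holds it once, as do 1.66% of promoters. It is shown because the value of PRE7 is compared with its partners.
PRE7 site, chrII:141150-141179, plus strand: aaactcaaagGGTGGCAAAaacaagcggta

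PRE7 belongs to the list for protein folding and degradation. With PRE7 counted, all 5 genes tested in mRNA and 3 of 4 in FP were higher, with medians of 1.30 and 1.31. The shares over all left-arm genes tested were 75.9% in mRNA and 68.3% in FP. SHP1, a cofactor of the Cdc48 segregase, rose by 1.30 ± 0.12 in mRNA and 1.28 ± 0.17 in FP, and UBP13 by 1.35 ± 0.10 and 1.34 ± 0.14. ATG8, the ubiquitin-like protein of autophagosomes, rose by 1.18 ± 0.17 in mRNA and had an FP copy effect of 0.45 ± 0.25, with FP ratios of -0.27 in D2 and -0.13 in D1/2 but 0.85 to 1.37 in the strains of run 2. The FP value ran from 0.0068 to 1.07 over the alternatives, and none passed. SSA3, a stress-induced Hsp70 chaperone, rose in mRNA by 0.82 ± 0.16 and was too low in FP to test.

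Genes of chromosome replication and segregation had medians near copy number. In mRNA 13 of 15 rose with a median of 1.02, and in FP all 14 tested rose with a median of 1.06. Over all left-arm genes tested, 75.9% rose in mRNA and 68.3% in FP, and the group was not tested against them. MCM2, a subunit of the replicative helicase, had mRNA ratios of 1.20 in D2, 1.27 in D1/2, 0.86 in D1/2/8, and 0.97 and 0.95 in D1/2/8/11, against -0.27 to 0.23 in the other aneuploid libraries. Its copy effect was 1.02 ± 0.12 in mRNA and 0.94 ± 0.12 in FP. POL12, a subunit of DNA polymerase alpha, rose by 0.81 ± 0.12 and 0.82 ± 0.11, BRN1 of condensin by 1.17 ± 0.15 and 1.05 ± 0.15, and CDC27 of the anaphase-promoting complex by 0.89 ± 0.20 and 1.17 ± 0.19. TEL1, the kinase that senses DNA breaks and short telomeres, was the lowest of the group in mRNA with a copy effect of 0.47.

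Of the 16 endocytosis, trafficking and membrane genes tested, 9 rose in mRNA and 8 in FP. For this and the next groups, 75.9% of all left-arm genes tested rose in mRNA and 68.3% in FP. SLA1, an actin regulator at endocytic sites, rose by 1.09 ± 0.23 in mRNA and 1.14 ± 0.12 in FP. EDE1, an early endocytic scaffold, had mRNA ratios of 1.08 in D2 and 1.27 in D1/2 but -0.10 in D1/2/8 and 0.11 and -0.02 in D1/2/8/11. Its FP ratios were 1.03, 1.18, 0.87, 0.61 and 0.78 in the same order, and it rose in FP (1.07 ± 0.21, adjusted p = 0.0194). With 1 copy its FP ratios were -0.65 in D13, -0.81 and -0.54 in KLY195, and 0.25 and 0.19 in D1/8. In run 2 the strains with chromosome II duplicated thus differed by 1.45 from the D13 strains and by 0.56 from D1/8. Among signalling genes and transcription factors, 7 of 10 rose in mRNA and 6 of 10 in FP. PKC1, the kinase of the cell wall integrity pathway, rose by 0.93 ± 0.14 and 1.01 ± 0.09, and ROX3, a Mediator subunit, by 1.08 ± 0.11 and 1.07 ± 0.10. In translation 3 of 3 rose in each fraction, ILS1, the isoleucyl-tRNA synthetase, by 0.95 ± 0.12 and 1.15 ± 0.09. In nucleotide and cofactor metabolism 4 of 4 rose in mRNA and 2 of 4 in FP, and URA7, a CTP synthase, rose by 1.13 ± 0.14 and 1.19 ± 0.16. YBL028C, named for its high WT mRNA level, rose by 1.05 ± 0.13 and 1.10 ± 0.23.

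The extreme mRNA values belonged to genes of low level. ECM13 stood at 4.60 RPKM in WT, 13.5 in D2 and 24.6 in D1/2 in run 1. In run 2 it stood at 9.0 RPKM in WT and between 66.2 and 77.5 in the strains with chromosome II duplicated, against 4.54 to 15.7 in the others. Its copy effect of 2.54 ± 0.37 passed the test against 0 (adjusted p = 0.00268) but not that against 1 (adjusted p = 0.174). MOH1 ranged from 0 RPKM in D2 and D1/2 to 28.1 in D13. Values under 4 reads are listed at 0, and WT of run 1 stood at only 4.61 RPKM, so absence in D2 and D1/2 is not shown. The copy effect of MOH1, -0.74 ± 0.92, turned to 0.57 in run 2 alone. The subtelomeric YBL113C and YBL112C had copy effects of -0.23 ± 0.29 and 0.12 ± 0.34, and neither passed.

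Window medians were of like size along most of the arm. In windows of 40 kb outward from the centromere the median mRNA copy effect was 0.98, 0.97, 0.92, 0.97, 0.92 and 0.80. In FP it was 1.08, 0.71, 1.07, 1.03, 1.05 and 0.83. The outermost window rested on 10 genes in mRNA and 8 in FP. In every window the median ratio was above 0.33 in each library with chromosome II duplicated.

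**Figure D4:**
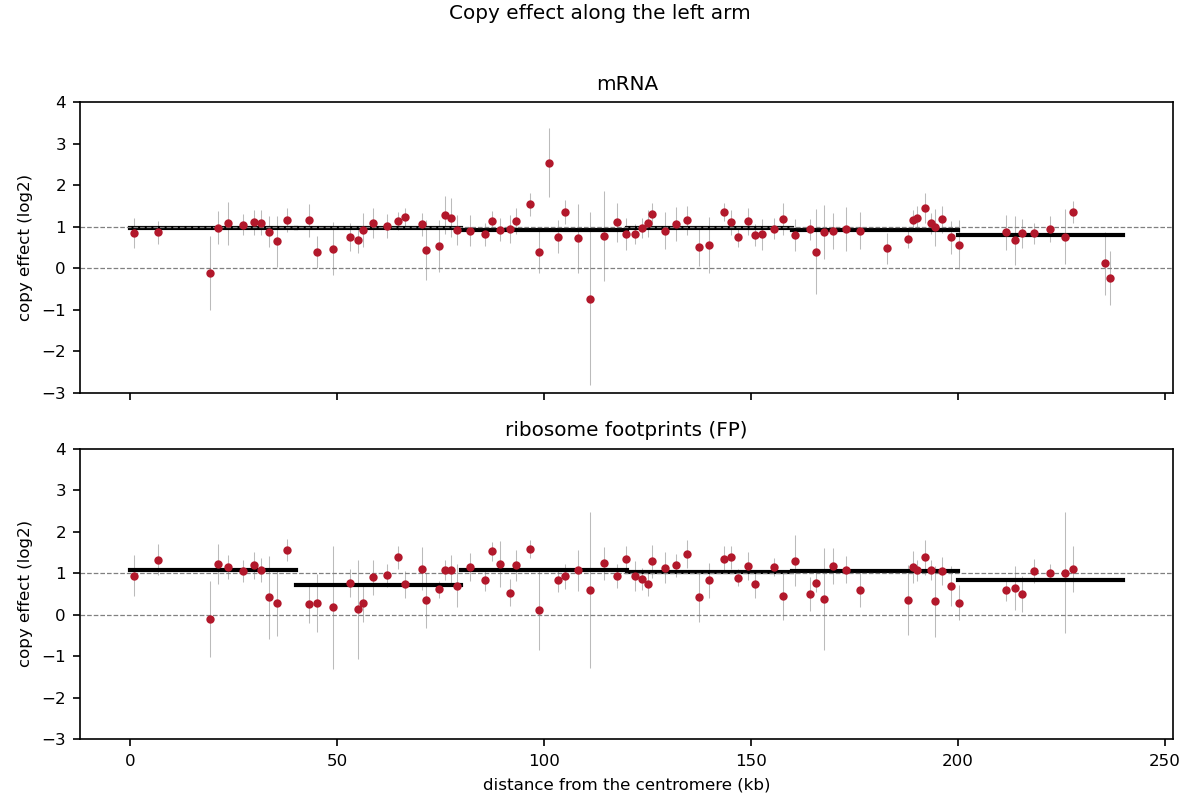
Copy effect (y axis, log2) with its 95% interval for each left-arm gene tested against its distance from the centromere (x axis, kb), in mRNA and FP, with medians of 40 kb windows as black bars. The window medians lie between 0.80 and 0.98 in mRNA and between 0.71 and 1.08 in FP, with none near 0.

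Ribosome density, the FP value relative to mRNA, did not change detectably for any left-arm gene. None of 82 passed limma's adjusted p, the smallest being 0.478 for RRN10, and none of all 4674 genes tested passed (0%). At an unadjusted p under 0.05, 3 genes were higher and 8 lower, where 8.75% of all genes differed. ATG8 (-0.74 ± 0.22), RRN10 (-0.50 ± 0.15) and TOD6 (0.51 ± 0.17), named after their values were seen, had the lowest unadjusted p. The run by copy interaction likewise passed for no left-arm gene in mRNA or FP, with 7 genes at an unadjusted p under 0.05 in each fraction, where 6.69% and 7.87% of all genes were.

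Left-arm subunits stood above partners encoded elsewhere, a comparison given without a test. In 14 complexes with 1 subunit on the left arm, the copy effect of that subunit exceeded the median of its partners on other chromosomes in 14 of 14 in mRNA and 14 of 14 in FP. The difference ranged from 0.75 to 1.11 in mRNA and from 0.41 to 1.59 in FP. Copy effects were above 0 for 84 of 87 left-arm genes tested in mRNA and 81 of 82 in FP. Genes off chromosome II had medians of -0.01 and -0.02. Most left-arm genes would thus stand above such partners, so the count is no result about complexes. Of these partners, 3 of 67 rose in mRNA and 6 of 66 in FP, where 0.525% and 3.19% of genes off chromosome II did, and none fell. Partners on other chromosomes that some strains carry in 2 copies were lowered by 1 in those strains. Of the 13 other proteasome core subunits listed, 12 were tested. These 12 had a median copy effect of 0.46 in mRNA and 0.41 in FP, and 3 and 4 of them rose, so PRE7 lay 1.08 and 1.17 above its partners. The partners of ATP1 had medians of -0.19 and -0.32, and ATP1 lay 0.75 and 0.60 above them. The partners of MCM2 had medians of -0.06 and -0.04. Partners encoded on chromosome II itself were left out of these medians and rose in both fractions, ATP3 by 0.93 ± 0.16 and 0.95 ± 0.15 and MCM7 by 0.70 ± 0.14 and 0.88 ± 0.11.

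**Figure D5:**
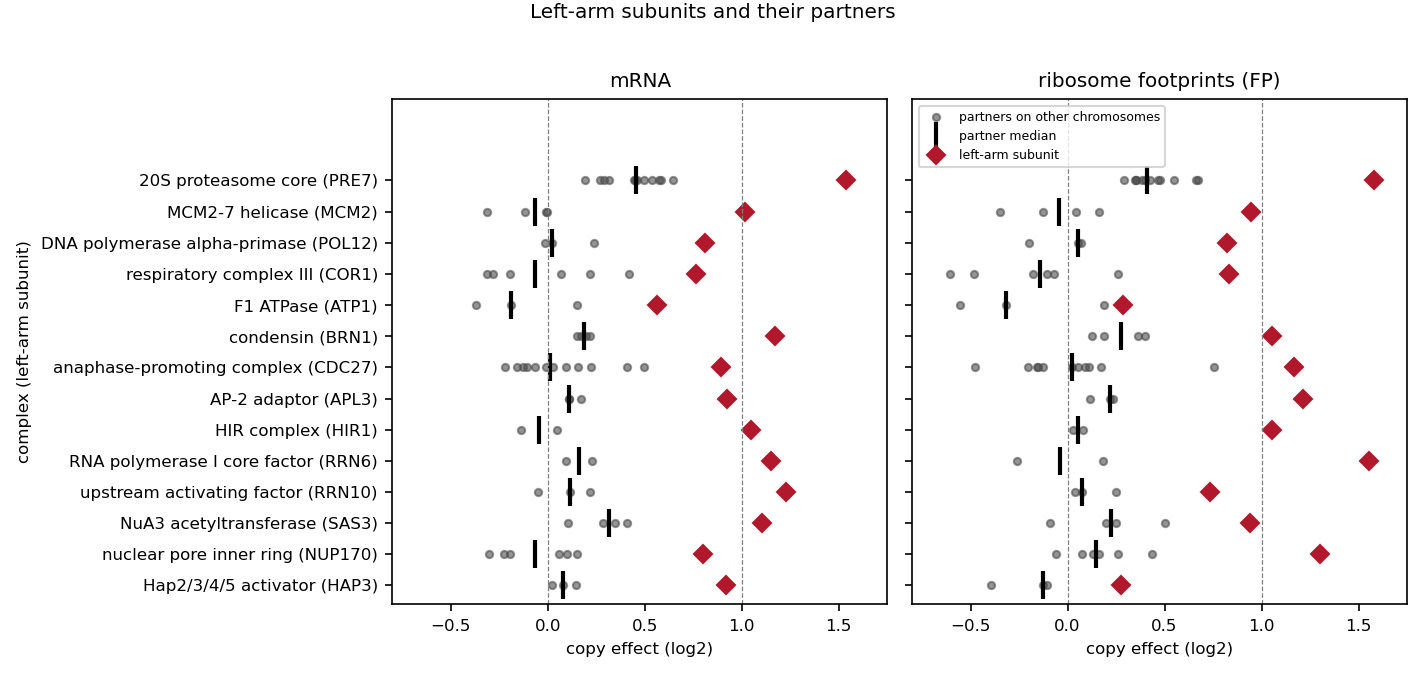
Copy effect (x axis, log2) of the left-arm subunit (red diamond) and of its partners on other chromosomes (grey points, median as a black bar) in 14 complexes (y axis), in mRNA and FP. Every diamond lies to the right of its partner median, as most left-arm genes would beside genes off chromosome II. PRE7 lies at 1.54 and 1.58 against partner medians of 0.46 and 0.41.

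Some calls were lost when 1 library was left out, while the copy effects stayed of like size. COR1 in mRNA passed at adjusted p = 0.0345 and no longer did without WT of run 1 (0.153), D2 (0.0682), D1/2 (0.0910), WT of run 2 (0.0637), D1/2/8 (0.158) or D13 (0.0566), nor did it without both cultures of KLY195 (0.0683). CDC27 and SLA1 in mRNA lost their call without WT of run 1 (0.107 and 0.155), D2 (0.0611 and 0.0532), D1/2 (0.0705 and 0.0623) or D1/2/8 (0.103 and 0.0668), and CDC27 also without D13 (0.0504). In these fits the copy effect was 0.70 to 0.79 for COR1, 0.86 to 0.94 for CDC27 and 0.97 to 1.17 for SLA1. EDE1 in FP lost it without WT of run 1 (0.0914), D1/2 (0.0548) or D1/2/8 (0.0920), and YBL028C in FP without WT of run 1 (0.119), D2 (0.0553) or D1/2 (0.0604). RRN10 in FP lost it without D1/2/8 (0.0638), and HAP3 in mRNA without WT of run 1 (0.117). SSA3 in mRNA lost it without WT of run 1 (0.0516) or D1/2/8 (0.0848). With ratios of the aneuploid strains only, ATG8, COR1, HAP3, SLA1 and SSA3 in mRNA and PET9, RRN10, SHP1 and YBL028C in FP no longer passed (adjusted p of 0.0503 to 0.185).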

How the data were processed

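The authors deposited RPKM values per ORF for 24 libraries, 12 of mRNA and 12 of ribosome footprints. Per the labels and methods, adapters were removed with Cutadapt, reads were aligned with Bowtie without mismatches to coding transcripts of sacCer3, and reads in coding sequences were counted. Versions are not given in the sources used here. ORFs with fewer than 4 reads are listed at 0 or blank, and blanks were read as 0. Reads were recovered as multiples of the smallest step, and 91.1% to 98.6% of values up to 50 reads came out within 0.05 of a whole number.

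RPKM is not a count, so log2(RPKM + 0.5) was fitted with limma 3.58.1 in R 4.3.3, separately for mRNA and FP. Cultures of a strain within a run were averaged, genes needed a mean of 5 RPKM over the 12 libraries of a fraction, and the model held run and chromosome II copies with an intensity trend. Each aneuploid library was shifted so that the median ratio of its nonduplicated chromosomes was 0 (shifts of -0.00 to 0.09). The paper describes such a scaling of its own values, and the shifts left to make were largest in FP of D2 (0.09) and D1/2 (0.07). In run 2 the largest was -0.0029, so the alternative without centring left those values almost unchanged. Genes on other duplicated chromosomes were lowered by 1 in the strains concerned. Benjamini-Hochberg adjustment covered all nuclear genes tested, for effects against 0 and, on chromosome II, against 1. The study's methods call the cultures biological replicates, and p-values measure the spread between these strain values. Density was FP minus mRNA per culture. Ratios quoted per library use no pseudocount. Alternatives were pseudocounts, filters, centring, the copy offset, the trend, cultures as replicates, run 2 only, ratios only, a replicate block and leaving out each culture or KLY195.

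Named genes were those farthest from copy number in each fraction (none passed), the 5 with the highest WT mRNA level and 25 by role, except 1 gene that is not reported here. The members, gene groups, complexes and motifs were chosen with earlier results of these data known. The hydrophobic class and the 1.5-fold count were likewise chosen with such results known. Motifs were searched on both strands.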

Additional observations from a re-analysis of the deposited data

Results flagged for a closer look

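The mRNA ratio of YBL028C was 1.36 in D1/2, against 1.05 to 1.10 in the 3 other strains with chromosome II duplicated. The gap to the nearest strain was 0.847 of the whole range, above Dixon's critical value for 4 values. This was 1 of 60 sets of 4 strain values examined, and chance alone sets apart about 1 set in 20.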

How the results depend on the processing

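Every alternative kept the left-arm medians above 0. Counts of genes higher in mRNA fell from 66 to 43 in run 2 only and in FP from 56 to 34, and all of these were called in the full fit. Whether replicate numbers pair the cultures was not settled. In mRNA, deviations of same-numbered cultures correlated at 0.34 between D1/2/8/11 and KLY195, and between -0.09 and 0.05 for the other pairs of strains. In FP the correlations lay between -0.02 and 0.10. With a replicate block over the replicated strains, 38 genes in mRNA and 13 in FP were higher, against 60 and 47 without the block.

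Departures from copy number appeared with cultures as replicates (1 below and 3 above in mRNA, 6 below and 5 above in FP), in replicated strains with no block (1 above in mRNA), with a mean RPKM of at least 10 (2 above in FP), with no filter (1 below and 2 above in FP, and 1 interaction in mRNA) and with no centring (1 above in FP). The mRNA median of 0.92 became 0.94 with cultures as replicates and in run 2 only, 1.00 with ratios only and in replicated strains with or without the block, 0.90 with a mean RPKM of at least 1 and 0.87 with no filter. The FP median of 0.94 became 1.03 in replicated strains with or without the block.

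Leaving out each culture gave 49 to 67 genes higher in mRNA and 44 to 57 in FP, 0 to 2 above copy number in FP and 0 in the other tests of departure and density, with medians of 0.89 to 0.98 and 0.92 to 0.99. The interaction could not be estimated without WT of run 1, and density has no separate value without the copy offset, which it does not use.

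Signs turned only for genes whose copy effect did not pass. In mRNA, MOH1 became 0.57 in run 2 only and 1.17 in replicated strains with or without the block, YBL113C became 0.026 with ratios only, and YBL112C became -0.061 with cultures as replicates, -0.40 in run 2 only and -0.60 in replicated strains with or without the block. PDR3 became 0.55 in mRNA and 0.53 in FP with ratios only. In FP, FUI1 and PEP1 became -0.28 and -0.25 in run 2 only, -0.058 and -0.031 without KLY195, and -0.17 and -0.53 in replicated strains with or without the block, and PEP1 turned to a value just below 0 (-0.0027) with cultures as replicates. FUS3 became -0.18 and HAP3 -0.083 in FP with ratios only. Leaving out 1 culture gave -1.29 to 0.57 for MOH1, -0.26 to 0.054 (mRNA) and -0.25 to 0.061 (FP) for PDR3, -0.40 to 0.35 for YBL112C, and in FP -0.28 to 0.31 for FUI1 and -0.25 to 0.43 for PEP1. The causes were not tested. Depth limits single ratios in run 1. Of 42 calls of named genes, 9 were lost with ratios only, 13 in run 2 only, 8 in replicated strains without the block, 25 with the replicate block and 1 without KLY195.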

Other observations

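In run 2 the strains with chromosomes I, II and VIII duplicated can be set beside D1/8, which has I and VIII without II. The comparison was chosen after values were seen and has no test. The left-arm genes tested lay a median of 0.85 above D1/8 in mRNA and 0.97 in FP, with 64 of 87 and 64 of 82 at least 1.5-fold higher and 10 and 12 below D1/8. Of genes on nonduplicated chromosomes, 366 of 3771 and 288 of 3434 were at least 1.5-fold higher. Beside D13 and KLY195 the medians were 1.01 and 1.02, against 0.01 and 0.03 for genes on nonduplicated chromosomes. Some of the genes that lay at or below WT took different places against the 2 references. PDR3 in FP lay 1.01 below D1/8 (a difference of -1.01) and 0.68 above the D13 strains, PEP1 had differences of -1.63 and 0.99, and ATP1 of -0.18 and 0.57. PRE7 had FP differences of 1.59 and 1.49.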
